A study of Mus musculus with 14 samples.

Results

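The 6 fast-growing plexiform neurofibromas (PNs) of the series were compared with its 5 slow-growing PNs. Members were taken from the sample labels, which mark mice 1053, 1071, 1179, 1191, 1214, and 1216 as fast growth and mice 1079, 1198A, 1202, 1203, and 1206 as slow growth in a natural history group. These 11 are among 14 bulk RNA-seq libraries in all. The other 3 (DRG3, DRG4, and DRG5) are control dorsal root ganglia (DRGs) with nerves, which were kept out of the fit and are given here only as reference values. Of 24062 genes in the table, 15465 passed edgeR's expression filter in the 11 PN libraries and were tested.

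All 11 PNs carried the genotype DhhCre;Nf1fl/fl, and the controls were Nf1fl/fl without the Cre. Every mouse was on a mixed C57BL/6, I-129 and FVBN background and had received no drug. *Dhh-Cre* drives recombination in the Schwann cell (SC) lineage, so *Nf1* is kept in the other cells of the tumor. Growth was measured by volumetric MRI at 7 and 9 months of age: a change under 5 mm3 over those 2 months defined slow growth, and an increase above 35 mm3 defined fast growth. Tissue was taken at 9 months by the methods text, while a figure legend of the study gives 7 months for the bulk PNs. Male and female mice were used, and neither sex nor batch is labelled by library. Each library is labelled with its own mouse number, so p-values here measure the spread between single tumors. Libraries were made from whole, frozen, undissociated tissue, in which fewer cells of a type and less RNA per cell cannot be told apart.

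SCs are the glia of peripheral nerve. Myelinating SCs wrap single large axons, whereas nonmyelinating SCs hold bundles of thin axons, and both arise from immature SCs. Neurofibromin, the product of *Nf1*, switches RAS off, and loss of *Nf1* in SCs gives rise to PNs, benign tumors that also hold macrophages, fibroblasts, mast cells, and a collagen-rich matrix. Type I and type II interferons act through receptors, JAK kinases, and STAT and IRF transcription factors to switch on a shared set of antiviral genes, the interferon-stimulated genes, many of which carry a short GAAA-rich element near their start site.

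In fast-growing PNs, 15 of 50 interferon-stimulated genes and 4 of 21 genes of nonmyelinating and immature SCs rose. So did 2 of 29 collagens and 3 of 17 matrix proteases and inhibitors. Of 18 myelin genes, 3 fell and 1 rose, and 1 of 18 fat genes fell. Of the other lists, the SC lineage transcription factors had 2 called genes and the rest 0 or 1. The lists were chosen with earlier results of these data known, *Lbh* and *Serpine2* of the nonmyelinating and immature SC list among them. Called genes are those whose Benjamini-Hochberg adjusted p, over the 15465 genes of the quasi-likelihood test in edgeR, was under 0.05. There were 196, or 1.27%. Of these, 124 (0.802% of genes tested) rose and 72 (0.466%) fell in fast-growing PNs. At an unadjusted p under 0.05, 11.9% of genes tested were higher and 8.51% were lower in fast-growing PNs. The fast and slow libraries did not overlap for 114 of the called genes that rose and for 48 of those that fell. Over all genes tested, every fast library was above every slow library for 2.34% of genes and below every slow library for 0.795%. The median log2 fold change (fast minus slow) over all genes tested was -0.03. Among the 196 adjusted p-values, 188 lay above 0.03 and 158 above 0.04. Leaving out single libraries left 2 called genes (without slow 1079, slow 1202, slow 1206, fast 1053, or fast 1191), 3 (without fast 1179), 8 (without fast 1216), 65 (without fast 1214), 372 (without fast 1071), 578 (without slow 1203), or 1194 (without slow 1198A). *Oasl2* and *Lbh* were called in each of these 11 fits. Each of the 196 genes kept its direction in each fit that tested it, though these fits share libraries with the one that picked the genes. Without *Rn45s* in the counts, 58 genes rose and 60 fell.

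**Figure D1:**
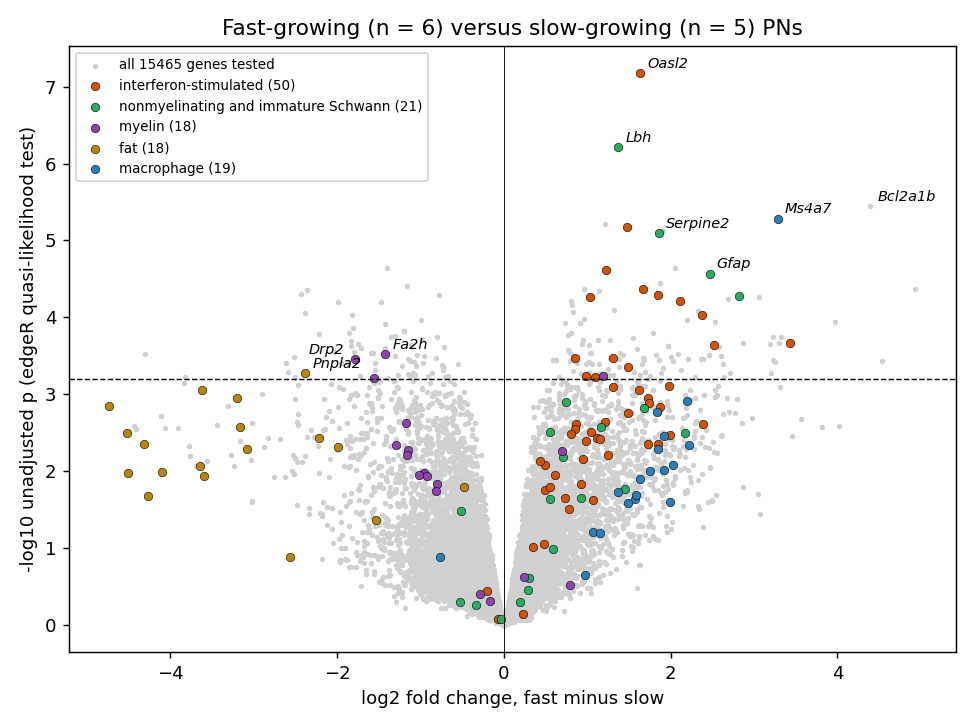
Each point is 1 of 15465 genes, with its log2 fold change (fast minus slow, 6 against 5 libraries) on the horizontal axis and the -log10 of its unadjusted p from edgeR's quasi-likelihood test on the vertical axis; points above the dashed line had an adjusted p under 0.05. Interferon-stimulated, nonmyelinating and immature Schwann, and macrophage genes lie mostly to the right of 0, and fat and myelin genes mostly to the left.

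The libraries held between 9900759 and 13439253 counts in the slow group and between 12159630 and 17594164 in the fast group, where 3 counts correspond to 0.167 to 0.302 CPM (counts relative to the TMM-scaled library size). These floors cover counting error only. The precursor of ribosomal RNA, *Rn45s*, took 3.48% to 15.3% of slow and 7.24% to 18.1% of fast counts. *Nf1* itself, counted over the whole gene in whole tissue, was at 221 to 268 CPM in fast libraries, and at 222 to 282 CPM in slow libraries. Its log2 fold change was -0.08 (SE 0.11, adjusted p = 0.692) and controls were at 134 to 231 CPM. This level cannot check the deletion, which removes part of the gene in SCs only. Other tissue differed between libraries. The score of 18 fat genes, a mean of log2(CPM + 1), was 6.31, 6.14, and 6.46 in slow 1198A, 1202, and 1206, against 3.60 and 1.78 in slow 1079 and 1203 and 1.44 to 3.46 in fast libraries. Skeletal muscle genes scored 7.23, 7.35, and 5.70 in slow 1079, 1202, and 1203 and 6.78 in fast 1071, against 1.69 to 4.24 in the other 7 PNs. Controls scored above every PN for both lists, at 7.58 to 7.99 for fat and 7.59 to 9.57 for muscle. The 16 neuronal genes scored 1.77 in fast 1191 and 6.22 to 8.70 in the other 10 PNs, so fast 1191 held almost no neuronal transcript. With the muscle and fat scores entered as covariates, 0 genes were called by edgeR and 1481 had an unadjusted p under 0.05. The corresponding counts were 0 called and 1917 unadjusted with the macrophage score as covariate, and 1 called and 3053 unadjusted with the fat score alone, both chosen after seeing the data.

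Interferon-stimulated genes were the list with the most called members. Of 50 tested, 15 were called higher and 0 lower, 45 were higher at an unadjusted p under 0.05 against 11.9% of all genes, and their median log2 fold change was 1.14. *Oasl2*, a member of the oligoadenylate synthetase family, whose enzymes sense double-stranded RNA (chr5:114896936-114912234, plus strand, mm10), was measured at 43.4, 39.7, 41.0, 34.9, and 37.6 CPM in slow 1079, 1198A, 1202, 1203, and 1206, and at 129, 96.4, 149, 125, 143, and 102 CPM in fast 1053, 1071, 1179, 1191, 1214, and 1216. The groups did not overlap, and the highest slow library lay below the lowest fast library by more than the range of the slow group. *Oasl2* had the lowest p of all genes (log2 fold change 1.64, SE 0.13, adjusted p = 0.00104), and controls were at 24.1 to 29.0 CPM. *Ifit1*, which binds viral RNA and blocks its translation (chr19:34640871-34650009, plus strand), was at 25.9, 29.6, 18.2, 23.8, and 21.6 CPM in the slow libraries in the same order and at 62.8, 47.1, 81.9, 65.3, 91.1, and 56.8 CPM in the fast libraries. It rose without overlap (log2 fold change 1.48, SE 0.19, adjusted p = 0.0156), and controls were lower than every PN, at 7.94 to 9.65 CPM. Leaving out single libraries left 1 called member (without slow 1079, slow 1202, slow 1206, fast 1053, fast 1179, or fast 1191), 2 (without fast 1216), 8 (without fast 1214), 21 (without slow 1203), 27 (without fast 1071), or 30 (without slow 1198A).

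*Usp18*, a protease that removes ISG15 and dampens interferon signaling, was at 7.07, 7.89, 3.93, 3.86, and 4.62 CPM in slow and at 18.9, 9.78, 31.5, 19.4, 20.6, and 20.5 CPM in fast libraries, so that even fast 1071, the lowest fast library, was above every slow one (log2 fold change 1.85, SE 0.30, adjusted p = 0.0317). *Isg15*, the ubiquitin-like modifier itself (chr4:156199424-156200818, minus strand), was at 10.6, 11.5, 7.26, 5.71, and 11.2 CPM in slow and 28.6, 13.9, 34.9, 23.05, 19.1, and 19.4 CPM in fast libraries. Fast 1071 was again the lowest of the fast group and lay close to the highest slow value (log2 fold change 1.30, SE 0.26, adjusted p = 0.0449). *Mx1*, a dynamin-like GTPase that blocks viruses, was at 3.65, 3.54, 1.21, 1.58, and 1.16 CPM in slow and 14.2, 3.55, 18.8, 17.6, 15.4, and 8.93 CPM in fast libraries. There the lowest fast library, 1071, fell among the slow ones, and the other 5 were above them (log2 fold change 2.52, SE 0.48, adjusted p = 0.0449).

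RNA and DNA sensors were among the other called members. *Ddx58*, encoding RIG-I, had a log2 fold change of 1.04 (adjusted p = 0.0317), and *Ifih1*, encoding MDA5, had 1.49 (adjusted p = 0.0469). *Zbp1*, a sensor of Z-form nucleic acid, went from a mean of 3.64 ± 1.22 CPM (SD, n = 5) in slow to 16.02 ± 6.38 CPM (SD, n = 6) in fast PNs (log2 fold change 2.11, SE 0.34, adjusted p = 0.0317). *Irf9*, a DNA-binding factor of the interferon response, rose less (log2 fold change 0.99, SE 0.21, adjusted p = 0.0484), and its groups overlapped in 1 library, fast 1071. *Stat2*, its partner, was at a log2 fold change of 0.50 (adjusted p = 0.149) and was not called. *Lgals3bp* (1.22), *Rtp4* (1.67), *Herc6* (1.09), and *Dtx3l* (0.85) were also called higher, with edgeR adjusted p-values from 0.0317 to 0.0484. *Oas1a* (log2 fold change 2.38, SE 0.41, adjusted p = 0.0376) and *Oas1g* rose as well, but the genes are close copies and the counting could have split reads between them. *Oas1g* was at 0.152, 0.811, 0.302, 0, and 0.289 CPM in slow libraries and 4.45, 1.07, 5.39, 4.33, 2.51, and 3.78 CPM in fast libraries, and slow values at or near the floor of 3 counts make its log2 fold change of 3.44 uncertain (adjusted p = 0.0449). *Rsad2*, *Ifi27*, and *Ifi27l2a*, other widely used interferon markers, were not called, at log2 fold changes of -0.07, -0.21, and 0.23.

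**Figure D2:**
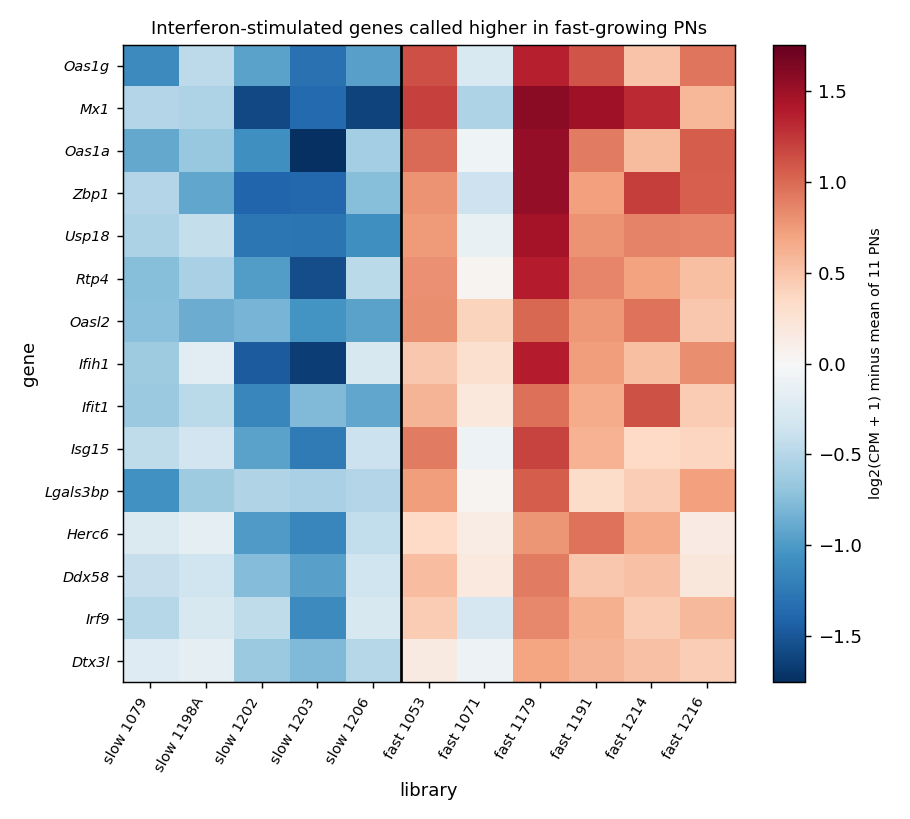
Rows are the 15 called interferon-stimulated genes and columns the 11 PN libraries, slow left of the line and fast right of it; color gives log2(CPM + 1) minus the mean of the 11 PNs. Fast 1179 is the highest library for most rows, and fast 1071 lies nearest to the slow libraries.

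The list's score was 4.25, 4.33, 3.89, 3.40, and 4.28 in slow and 5.22, 4.504, 5.70, 5.33, 5.24, and 5.16 in fast libraries in the orders above, against 3.60 to 4.99 in controls. It moved beside the macrophage score, which was 2.74 to 5.45 in slow and 4.82 to 6.40 in fast libraries. With the macrophage score as covariate, a fit chosen after seeing the data, the median log2 fold change of the 15 called genes was 1.04 in place of 1.49, and 11 of them had an unadjusted p under 0.05 in edgeR's test. None of the 15 was called in that fit, where *Oasl2* had a log2 fold change of 1.54 (adjusted p = 0.156) and *Ifit1* of 1.36 (adjusted p = 0.307). Without the 3 slow libraries of high fat score, also chosen after seeing the data, the median of the 15 was 1.67 and all 15 had an unadjusted p under 0.05, while *Oasl2* alone of the list was called among the 2 slow and 6 fast libraries left. The 15 were picked as called with these same libraries included, so neither fit is an independent check of them.

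The start sites of these genes can be read for the element through which IRF and STAT proteins bind. Promoter sequence (250 bases before to 50 after the start, RefSeq, GRCm38.p6, the assembly of mm10) was found for 11 of the 15 called members and for 35 of the 50 tested. The letters GAAANNGAAA were searched on both strands (TTTCNNTTTC on the other), and overlapping matches were allowed. They occurred in 19 of the 35 tested members (54.3%), against 3.71% of tested genes with a promoter and 3.99% of the whole promoter table. The share was 6 of 11 (54.5%) among called members and 13 of 24 (54.2%) among members that were not called, so that it did not separate the 2. Of genes called higher outside the list, 11 of 79 (13.9%) held the letters, and of genes called lower 1 of 50 (2.0%). Shown are windows of 100 bases from upstream of the start sites of 4 called members and of *Fcgr4*, an Fc receptor gene described later, each read 5′ to 3′ on the strand of the gene, with the matched letters in capitals. Each window was placed around the matches as far as the start site allowed, so the windows end at different distances from it, and the first match begins 104 bases before the start for *Ifit1*, 78 for *Isg15*, 20 for *Oas1a*, 18 for *Oas1g*, and 73 for *Fcgr4*. *Ifit1* is from chr19:34640749-34640848 (plus strand), *Isg15* from chr4:156200836-156200935 (minus), *Oas1a* from chr5:120907526-120907625 (minus), *Oas1g* from chr5:120887614-120887713 (minus), and *Fcgr4* from chr1:171018808-171018907 (plus).
Ifit1: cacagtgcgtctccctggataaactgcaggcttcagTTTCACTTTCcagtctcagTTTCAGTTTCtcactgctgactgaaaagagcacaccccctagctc
Isg15: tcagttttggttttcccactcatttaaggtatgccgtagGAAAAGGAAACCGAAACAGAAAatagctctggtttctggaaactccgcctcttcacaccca
Oas1a: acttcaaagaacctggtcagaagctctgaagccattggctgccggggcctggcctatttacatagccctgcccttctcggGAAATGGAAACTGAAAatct
Oas1g: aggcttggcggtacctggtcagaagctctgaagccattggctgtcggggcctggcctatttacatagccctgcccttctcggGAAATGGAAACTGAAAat
Fcgr4: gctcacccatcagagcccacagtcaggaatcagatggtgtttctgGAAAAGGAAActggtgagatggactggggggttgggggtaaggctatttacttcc
*Ifit1* holds 2 matches written on the opposite strand, *Isg15* 3 that overlap in a row, and *Oas1a* and *Oas1g* 2 each that overlap. The *Oas1a* and *Oas1g* windows were identical at 92 of 102 aligned positions. A match is a description of the letters and not a measured site.

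The MHC lists held a single called gene. Of 13 tested genes of MHC class I presentation, 1 was called higher and 0 lower, 12 were higher at an unadjusted p under 0.05, and the median log2 fold change was 0.92. The called gene was *Tap1*, which pumps peptides into the endoplasmic reticulum. It was at 12.99, 10.3, 8.47, 5.005, and 12.2 CPM in slow and 26.1, 15.5, 56.8, 28.4, 23.9, and 26.2 CPM in fast libraries, without overlap (log2 fold change 1.56, SE 0.33, adjusted p = 0.0484), and its exons overlap those of *Psmb9* on the opposite strand. *Tap1* had a log2 fold change of 0.72 with the macrophage score as covariate. *B2m*, the light chain of class I molecules, went from 791 ± 293 CPM (SD, n = 5) to 1514 ± 489 CPM (SD, n = 6) and was not called (log2 fold change 0.92, SE 0.28, adjusted p = 0.103). Of 9 tested genes of MHC class II presentation, 0 were called, 7 were higher at an unadjusted p under 0.05, and the median log2 fold change was 2.30. *H2-Aa*, a class II chain, was at 133, 434, 115, 46.1, and 95.6 CPM in slow and 852, 309, 1512, 863, 409, and 1023 CPM in fast libraries. Slow 1198A, at more than the 2 lowest fast libraries, made the groups overlap (log2 fold change 2.30, SE 0.59, adjusted p = 0.0652). *Cd74*, the invariant chain, showed the same order: slow 1198A was at 1057 CPM and the other slow libraries at 82.4 to 275 CPM, against 596 to 3284 CPM in fast libraries (log2 fold change 2.18, SE 0.63, adjusted p = 0.0852). Outside the lists and picked after its values were seen, *H2-M3*, a nonclassical class I gene, rose without overlap (log2 fold change 1.15, SE 0.24, adjusted p = 0.0484). Its log2 fold change was 0.62 with the macrophage score as covariate. Reads of MHC genes can be split between near-identical copies.

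Among macrophage markers, a single gene passed the test. Of 19 tested, 1 was called higher and 0 lower, 15 were higher at an unadjusted p under 0.05, and the median log2 fold change was 1.75. *Ms4a7*, a membrane protein of macrophages (chr19:11321039-11336146, minus strand), was at 1.98, 3.91, 1.71, 1.49, and 0.770 CPM in slow and 19.0, 13.5, 31.3, 15.9, 11.6, and 27.95 CPM in fast libraries. The groups were apart, with slow 1198A the highest slow library (log2 fold change 3.28, SE 0.41, adjusted p = 0.0156), and controls spanned 1.48 to 16.8 CPM. *C1qa*, a complement component made by tissue macrophages, was at 3.12, 24.99, 5.64, 2.90, and 3.75 CPM in slow and 32.3, 15.2, 56.6, 28.9, 14.8, and 41.3 CPM in fast libraries. Slow 1198A lay within the fast range and the other 4 slow libraries below it, and the gene was not called (log2 fold change 1.92, SE 0.62, adjusted p = 0.113). *Csf1r*, the receptor for the macrophage growth factor CSF1, and *Cx3cr1*, the fractalkine receptor, had log2 fold changes of 1.63 (adjusted p = 0.127) and 2.19 (adjusted p = 0.0569). *Cd163*, a scavenger receptor of resident macrophages, was at -0.77 (adjusted p = 0.391).

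*Fcgr4*, an activating receptor for immunoglobulin G (chr1:171018920-171029761, plus strand), was at 0.380, 0.295, 0.403, 0, and 0 CPM in slow and 6.17, 3.22, 11.1, 5.06, 2.14, and 15.1 CPM in fast libraries. The slow values are at or around the level of 3 counts, so the fold is uncertain while the groups are apart (log2 fold change 4.93, SE 0.77, adjusted p = 0.0317). Chosen after their values were seen, *Fcgr1* (log2 fold change 2.71, SE 0.57, adjusted p = 0.0484) and *Fcgr2b* (log2 fold change 1.82, SE 0.36, adjusted p = 0.0449) rose too, and *Fcgr3* was at 1.69 (adjusted p = 0.103). *Itgax*, the CD11c integrin chain of dendritic cells and macrophages, was at 1.82, 2.43, 1.21, 0.527, and 1.25 CPM in slow and 12.8, 2.88, 24.4, 26.1, 6.56, and 8.52 CPM in fast libraries. Fast 1071 was the lowest of its group and just above slow 1198A (log2 fold change 3.19, SE 0.60, adjusted p = 0.0449). *Cd80*, a costimulatory ligand for T cells (3.20, adjusted p = 0.0484), *Cd72*, an inhibitory receptor of B cells and myeloid cells (3.22, adjusted p = 0.0449), and *Sh2d1b1*, an adaptor of SLAM receptors (3.25, adjusted p = 0.0449), also rose without overlap. With the macrophage score as covariate, the log2 fold changes of *Fcgr4*, *Itgax*, *Cd80*, and *Cd72* were 2.99, 1.25, 1.48, and 1.39. Those of *Fcgr1*, *Fcgr2b*, and *Sh2d1b1* were 1.21, 0.85, and 1.42. The part of macrophage content in these values was not tested further.

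Among 23 chemokine and chemokine receptor genes, 1 was called higher and 0 lower, and 16 were higher and 1 lower at an unadjusted p under 0.05. *Ccl12*, a monocyte attractant, was at 0.456, 3.61, 0.705, 0.878, and 1.73 CPM in slow and 15.3, 3.35, 21.8, 19.96, 11.9, and 13.2 CPM in fast libraries. The lowest fast library, 1071, fell just below slow 1198A, and the others were apart (log2 fold change 3.22, SE 0.60, adjusted p = 0.0449). *Ccl12* had a log2 fold change of 1.90 with the macrophage score as covariate. *Ccl2*, which draws the same cells, was not called (log2 fold change 2.17, SE 0.66, adjusted p = 0.0951), nor was its receptor *Ccr2* (1.94, adjusted p = 0.128). Of 19 complement genes, 0 were called, 10 were higher and 1 was lower at an unadjusted p under 0.05, the last being *Cfd*, a gene also expressed by fat cells. Markers of other immune cells did not move together: of 8 mast cell, 12 neutrophil and granule, and 11 lymphocyte genes, 0 were called by edgeR and 1 of each list was higher at an unadjusted p under 0.05. Their median log2 fold changes were 0.01, 0.24, and -0.12. *Cma1*, a mast cell protease, was at 8.74, 12.2, 7.26, 0.790, and 7.32 CPM in slow and 4.12, 4.15, 10.8, 20.7, 5.68, and 6.52 CPM in fast libraries, which overlapped throughout.

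*Bcl2a1b*, encoding an antiapoptotic relative of BCL2 (chr9:89199209-89207827, plus strand), had the third-lowest p. It was at 0.304, 0.442, 0.101, 0.176, and 0.481 CPM in slow and 6.01, 2.48, 12.5, 9.03, 3.32, and 6.87 CPM in fast libraries. Every slow library was within a few counts of the floor, so the fold is uncertain, and every fast library was several times higher (log2 fold change 4.39, SE 0.53, adjusted p = 0.0156). Controls were at 0.349 to 5.21 CPM. *Bcl2a1b* had a log2 fold change of 2.85 with the macrophage score as covariate, where it was not called. Its copies *Bcl2a1a* and *Bcl2a1d* did not pass the filter, with at most 18 and 20 counts in any PN library, and reads could be shared between the 3. *Bcl2a1b* also shares exon sequence with the predicted gene *Gm29094*. Of the 12 tested genes of the BCL2 family list, 1 was called higher and 0 lower, and 6 were higher at an unadjusted p under 0.05. *Bmf*, a proapoptotic member, was at 0.96 (adjusted p = 0.0572), *Bax* at 0.57 (adjusted p = 0.0578), *Mcl1* at 0.67 (adjusted p = 0.18), and *Bcl2* at 0.23 (adjusted p = 0.274). Outside the list and picked after its values were seen, *Bok*, a proapoptotic relative, fell with overlap (log2 fold change -1.15, SE 0.24, adjusted p = 0.0484).

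Some genes of nonmyelinating and immature SCs rose in fast-growing PNs. Of 21 tested, 4 were called higher and 0 lower, 13 were higher and 1 was lower at an unadjusted p under 0.05, and the median log2 fold change was 0.71. The list was drawn up with earlier results of these libraries known, *Lbh* and *Serpine2* among them, so its count is not independent evidence. *Lbh*, a transcription cofactor of developing tissues (chr17:72918305-72941947, plus strand), was at 60.9, 70.6, 61.8, 75.9, and 79.4 CPM in slow 1079, 1198A, 1202, 1203, and 1206, and at 185, 159, 211, 218, 149, and 174 CPM in fast libraries. The 2 groups were tight and apart (log2 fold change 1.37, SE 0.14, adjusted p = 0.00473), and controls were at 42.3 to 61.1 CPM. *Serpine2*, an inhibitor of thrombin and plasminogen activators (chr1:79794197-79861180, minus strand), was at 104, 160.0, 87.0, 59.4, and 128 CPM in slow and 340.0, 320.0, 449, 380.3, 350.5, and 537 CPM in fast libraries. Every fast library lay far above slow 1198A, the highest slow one (log2 fold change 1.86, SE 0.24, adjusted p = 0.0156), and controls were at 54.4 to 94.0 CPM.

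*Gfap*, an intermediate filament of nonmyelinating SCs and astrocytes (chr11:102887336-102900912, minus strand), was at 6.23, 7.15, 2.12, 3.161, and 7.12 CPM in slow and 32.3, 25.4, 28.3, 17.0, 21.3, and 50.5 CPM in fast libraries. Its lowest fast value, in 1191, was above the slow range (log2 fold change 2.47, SE 0.37, adjusted p = 0.0317), and controls were at 0.579 to 3.58 CPM. *Gdnf*, a neurotrophic factor made by SCs for neurons (chr15:7810846-7837575, plus strand), was at 0.456, 1.11, 0.605, 0.439, and 0.481 CPM in slow and 4.51, 1.54, 3.67, 7.93, 3.17, and 6.18 CPM in fast libraries. The slow values were low, slow 1198A the highest of them, and the groups did not overlap (log2 fold change 2.82, SE 0.45, adjusted p = 0.0317). *Scn7a* and *Chl1*, a sodium channel and an adhesion molecule of nonmyelinating SCs, were higher but not called, at 0.71 (adjusted p = 0.0946) and 1.17 (adjusted p = 0.0691). *Ngfr*, the low-affinity neurotrophin receptor, was at -0.33 (adjusted p = 0.744), and *Sox10*, the transcription factor of the whole SC lineage, at 0.09 (adjusted p = 0.866), with 143 to 184 CPM in fast libraries and 62.5 to 232 CPM in slow libraries. The list's score was 5.84 to 6.40 in slow and 6.63 to 7.05 in fast libraries, so it did not overlap, and both groups were above the controls at 4.92 to 5.74. Scores of the BCL2 family list (slow up to 4.29, fast from 4.47) did not overlap either. Nor did those of the matrix protease list (slow up to 5.39, fast from 5.45). Leaving out single libraries left 1 called gene of the nonmyelinating and immature SC list (without slow 1079, slow 1202, slow 1206, fast 1053, fast 1179, or fast 1191), 2 (without fast 1216), 4 (without fast 1071 or fast 1214), 6 (without slow 1203), or 11 (without slow 1198A). Without the 3 slow libraries of high fat score, the log2 fold changes were 1.42 for *Lbh*, 2.28 for *Serpine2*, 2.63 for *Gfap*, and 3.32 for *Gdnf*, with *Serpine2* called, and with the macrophage score as covariate they were 1.23, 1.21, 1.95, and 1.63, with none called.

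**Figure D3:**
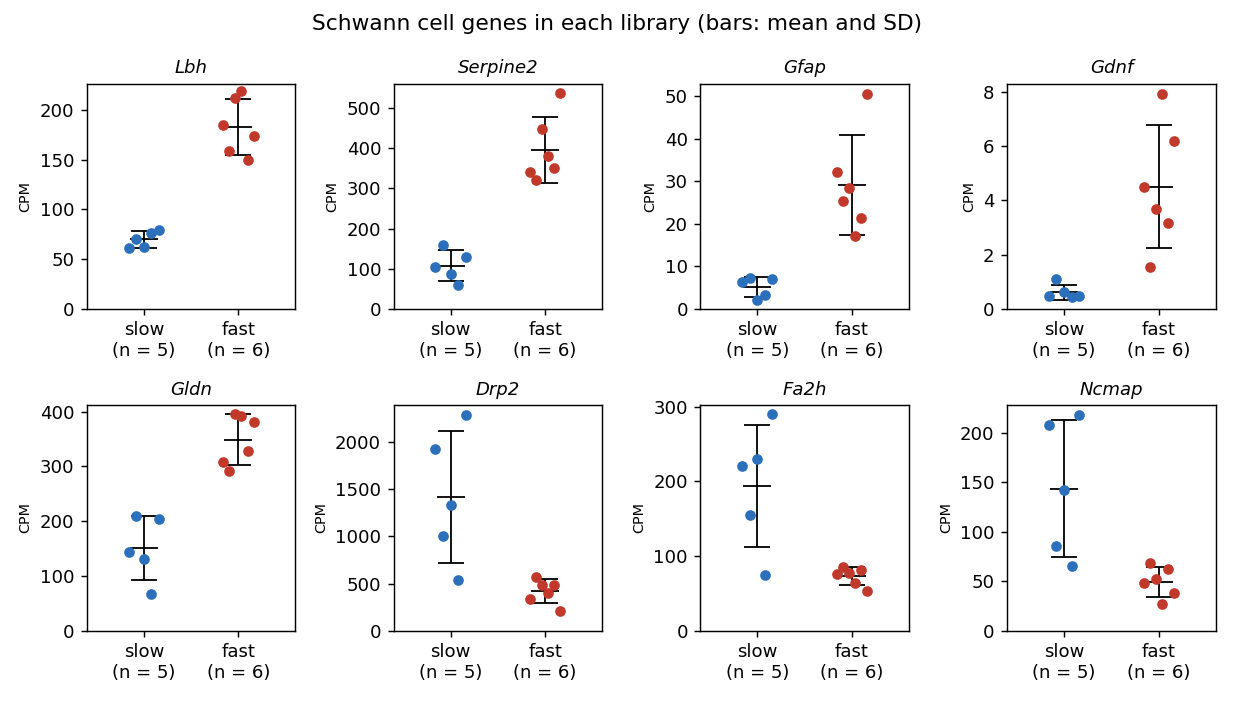
Each point is the level of a gene in 1 PN library in CPM, with 5 slow libraries on the left and 6 fast libraries on the right of each panel, and black bars give the mean and SD of a group. *Lbh*, *Serpine2*, *Gfap*, *Gdnf*, and *Gldn* separate the groups upward, and *Drp2*, *Fa2h*, and *Ncmap* are lower in fast libraries, with 1 slow library (1203) inside or near the fast range.

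Some myelin genes fell. Of 18 tested, 3 were called lower and 1 higher, 12 were lower and 2 higher at an unadjusted p under 0.05 against 8.51% lower among all genes, and the median log2 fold change was -0.94. *Drp2*, which links the SC membrane to periaxin in myelinating SCs (chrX:134404551-134456573, plus strand), was at 1925, 1006, 1335, 541, and 2289 CPM in slow and 337, 569, 488, 404, 484, and 212 CPM in fast libraries. Slow 1203 lay inside the fast range and the other 4 slow libraries above it (log2 fold change -1.78, SE 0.36, adjusted p = 0.0449), while controls were at 393 to 1121 CPM. *Fa2h*, which hydroxylates fatty acids of myelin lipids, was at 220.2, 155, 229.9, 74.9, and 290.1 CPM in slow and 75.8, 85.5, 77.7, 64.1, 81.7, and 52.8 CPM in fast libraries, with the same single overlap (log2 fold change -1.43, SE 0.28, adjusted p = 0.0449). *Ncmap*, a protein of noncompact myelin, was at 208, 85.1, 142, 65.4, and 218 CPM in slow and 48.6, 68.2, 51.8, 26.5, 62.3, and 37.6 CPM in fast libraries, again with 1203 inside the fast range (log2 fold change -1.56, SE 0.33, adjusted p = 0.0488).

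Other myelin genes were lower at an unadjusted p under 0.05 but were not called. *Mbp* was at -1.02 (adjusted p = 0.119), *Pmp22* at -0.81 (adjusted p = 0.136), and *Prx*, encoding periaxin, at -1.15 (adjusted p = 0.0871). *Egr2*, the transcription factor that drives myelination, was at -0.29 (adjusted p = 0.638). *Gldn*, the gliomedin gene, whose product gathers sodium channels at nodes of Ranvier, was the exception among called genes: it was at 144, 210.1, 132, 67.7, and 205 CPM in slow and 308, 291, 395, 392.3, 328, and 381 CPM in fast libraries and rose without overlap (log2 fold change 1.19, SE 0.25, adjusted p = 0.0484). The log2 fold change of *Gldn* was 0.57 with the macrophage score as covariate and 1.73 without the 3 slow libraries of high fat score. The score of the list was 8.39, 8.10, 8.06, 6.95, and 8.81 in slow libraries and 7.13 to 7.84 in fast ones. Slow 1203, the lowest of all, was also the library with the most neuronal transcript and one of the least fat. Without it, 10 of the myelin genes were called lower, and 5 were without slow 1198A, 3 without fast 1071, and 0 without any other single library. Without the 3 slow libraries of high fat score the median of the list was -0.55, with 4 genes higher and 4 lower at an unadjusted p under 0.05, and with the fat score as covariate it was -0.39. The part of fat-bearing tissue in the myelin difference was not tested further.

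Among 21 transcription factors of the SC lineage, 2 were called higher and 0 lower, and 12 were higher and 1 lower at an unadjusted p under 0.05. *Tfap2a*, a factor of neural crest and SC precursors (chr13:40715302-40738376, minus strand), was at 4.18, 7.67, 5.04, 6.94, and 5.30 CPM in slow and 15.6, 10.8, 13.9, 7.71, 11.9, and 12.8 CPM in fast libraries. The highest slow and the lowest fast library nearly met, and 3 uncharacterized genes overlap it on the opposite strand (log2 fold change 1.03, SE 0.21, adjusted p = 0.0484). *Egr3*, an immediate early factor, was at 9.19, 12.97, 6.55, 7.55, and 15.1 CPM in slow and 48.3, 16.7, 28.9, 40.2, 19.2, and 47.9 CPM in fast libraries, without overlap (log2 fold change 1.68, SE 0.34, adjusted p = 0.0449). *Sox2* (0.92, adjusted p = 0.167), *Sox4* (1.42, adjusted p = 0.0574), and *Jun* (0.55, adjusted p = 0.0722), which mark immature or injured SCs, were not called. Of 12 satellite glial genes, *Ttyh1*, encoding a chloride channel protein, rose (log2 fold change 0.82, SE 0.14, adjusted p = 0.0376), from 69.0 ± 12.9 CPM (SD, n = 5) to 124 ± 11.9 CPM (SD, n = 6), and *Fabp7* (-0.55, adjusted p = 0.596) and *Kcnj10* (1.57, adjusted p = 0.0544) were not called.

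Genes downstream of RAS and genes of cell division were examined for the growth difference. Of 18 genes of RAS-MAPK feedback and its ETV factors, 0 were called by edgeR, 8 were higher and 0 lower at an unadjusted p under 0.05, and the median log2 fold change was 0.53. *Spred1*, which recruits neurofibromin to the membrane, was at 1.03 (adjusted p = 0.0562), *Dusp6*, an ERK phosphatase, at 1.25 (adjusted p = 0.136), and *Ccnd1*, encoding cyclin D1, at 1.85 (adjusted p = 0.0971). *Dusp4*, the defining member of the list, was at 0.09 (adjusted p = 0.919 in edgeR's test), and its groups overlapped. *Ccnd1* was at 415 CPM in slow 1198A, 42.0 to 123 CPM in the other slow libraries, and 339 to 821 CPM in fast ones. Of 39 cell cycle and DNA replication genes, 0 were called and 3 were higher at an unadjusted p under 0.05, with a median log2 fold change of 0.36. *Mki67*, a marker of cycling cells, was at 123, 40.3, 45.2, 11.2, and 18.3 CPM in slow and 26.0, 66.7, 69.3, 174, 45.3, and 45.9 CPM in fast libraries. The groups overlapped throughout, slow 1079 and fast 1191 being the 2 highest of all (log2 fold change 0.58, SE 0.62, adjusted p = 0.618). Of 17 tumor suppressor genes of nerve sheath tumors and 18 RAS and RAS GAP genes, 0 were called, and *Hras* and *Nras* were at -0.26 and 0.03.

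Growth factors gave few calls. Of 37 listed ligands 1 was called, *Gdnf*, and 12 were higher and 7 lower at an unadjusted p under 0.05. *Fgf4*, a ligand outside the list, fell (log2 fold change -1.83, adjusted p = 0.0449). *Ereg* and *Btc*, ligands of the EGF receptor, were at 4.01 (adjusted p = 0.0685) and 1.89 (adjusted p = 0.0734), and *Tgfa*, another, was at -1.51 (adjusted p = 0.0562). *Egfr* was at 47.9, 60.8, 60.1, 15.9, and 66.9 CPM in slow and 96.6, 44.6, 98.2, 119, 78.4, and 164 CPM in fast libraries, which overlapped (log2 fold change 0.97, SE 0.37, adjusted p = 0.168). None of 29 growth factor receptors was called, with 10 higher and 3 lower at an unadjusted p under 0.05, and none of 26 NF-kB and STAT3 components, with 9 higher and 0 lower. *Nfkb1* was at 0.52 (adjusted p = 0.146).

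Some matrix genes passed the test. Of 29 collagen genes, 2 were called higher and 0 lower, against 0.802% called higher among all genes. At an unadjusted p under 0.05, 18 were higher and 2 lower, against 11.9% and 8.51% of all genes. Their median log2 fold change was 0.98. *Col5a2*, a chain of fibril-forming collagen V (chr1:45374321-45503282, minus strand), was at 94.0, 189, 59.3, 29.2, and 109.7 CPM in slow and 288, 399, 415, 766, 322, and 501 CPM in fast libraries. *Col28a1*, encoding a collagen found mainly around SCs (chr6:7997808-8192617, minus strand), was at 33.0, 135, 36.3, 40.8, and 50.1 CPM in slow and 261, 264, 251, 356, 183, and 333 CPM in fast libraries. Both separated the groups, with slow 1198A the highest slow library (log2 fold change 2.21, SE 0.44, adjusted p = 0.0449 for *Col5a2*; log2 fold change 2.20, SE 0.38, adjusted p = 0.0403 for *Col28a1*). *Col1a1* and *Col3a1*, the bulk collagens of connective tissue, were at 1.18 (adjusted p = 0.151) and 1.37 (adjusted p = 0.0783). *Fbn2*, encoding the microfibril protein fibrillin-2, had one of the 12 largest rises: it was at 6.76, 24.5, 5.14, 4.92, and 10.7 CPM in slow and 90.4, 58.6, 83.3, 122, 40.6, and 135 CPM in fast libraries (log2 fold change 3.06, SE 0.49, adjusted p = 0.0317). Of 23 matricellular and matrix genes, 0 were called, and 12 were higher and 2 lower at an unadjusted p under 0.05. *Postn*, encoding periostin, was at 109, 456, 58.6, 22.1, and 136 CPM in slow and 732, 859, 963, 2142, 685, and 1073 CPM in fast libraries and separated the groups without being called (log2 fold change 2.77, SE 0.68, adjusted p = 0.0596).

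Proteases of the matrix and a protease inhibitor rose too. Of 17 matrix proteases and inhibitors, 3 were called higher and 0 lower, and 8 were higher and 2 lower at an unadjusted p under 0.05. *Mmp2*, a gelatinase, was at 128, 129, 79.2, 27.3, and 123 CPM in slow and 345, 349, 374, 451, 224, and 579 CPM in fast libraries. *Mmp14*, the membrane protease that activates it, was at 19.1, 37.5, 23.6, 10.9, and 29.8 CPM and 104, 47.8, 92.7, 93.7, 54.8, and 114 CPM. *Timp1*, a secreted inhibitor of matrix metalloproteinases, was at 3.34, 18.4, 2.82, 2.11, and 4.04 CPM and 31.5, 26.3, 37.2, 50.4, 28.2, and 61.3 CPM. The 3 genes separated the groups (log2 fold change 1.97, SE 0.38, adjusted p = 0.0449 for *Mmp2*; log2 fold change 1.78, SE 0.32, adjusted p = 0.0449 for *Mmp14*; log2 fold change 2.63, SE 0.56, adjusted p = 0.0485 for *Timp1*), and slow 1198A stood above the other slow libraries for *Timp1*. With the macrophage score as covariate the log2 fold changes were 1.04 for *Mmp2*, 0.76 for *Mmp14*, 1.35 for *Timp1*, 1.15 for *Col5a2*, 1.36 for *Col28a1*, and 1.74 for *Fbn2*, and none was called. *Inhba*, a fibroblast gene encoding the activin A subunit, rose as well (log2 fold change 2.36, SE 0.47, adjusted p = 0.0449), from 4.09 ± 2.26 CPM (SD, n = 5) to 21.4 ± 12.9 CPM (SD, n = 6), as the single called gene of 14 fibroblast markers, of which 5 were higher at an unadjusted p under 0.05. *Pdgfra*, which marks fibroblasts, was at 0.76 (adjusted p = 0.214). Of 12 endothelial and 8 perineurial markers, 0 were called, and 0 and 2 were higher at an unadjusted p under 0.05. Of 12 pericyte and smooth muscle genes, the adhesion molecule gene *Mcam* rose (log2 fold change 1.03, SE 0.20, adjusted p = 0.0449), and 6 genes of contractile cells, among them *Myh11* (-2.20, adjusted p = 0.206), were lower at an unadjusted p under 0.05. *Klk9*, a kallikrein-type serine protease (log2 fold change 3.97, SE 0.69, adjusted p = 0.0403), and *Gjb2*, encoding the gap junction protein connexin 26 (log2 fold change 2.86, SE 0.54, adjusted p = 0.0449), were among the largest rises outside the lists; *Klk9* was at 0.912, 6.19, 0.302, 0.615, and 1.25 CPM in slow and 13.7, 20.2, 33.2, 48.9, 30.3, and 35.03 CPM in fast libraries. *Fam69c* completed the 12 largest (log2 fold change 3.30, SE 0.62, adjusted p = 0.0449).

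**Figure D4:**
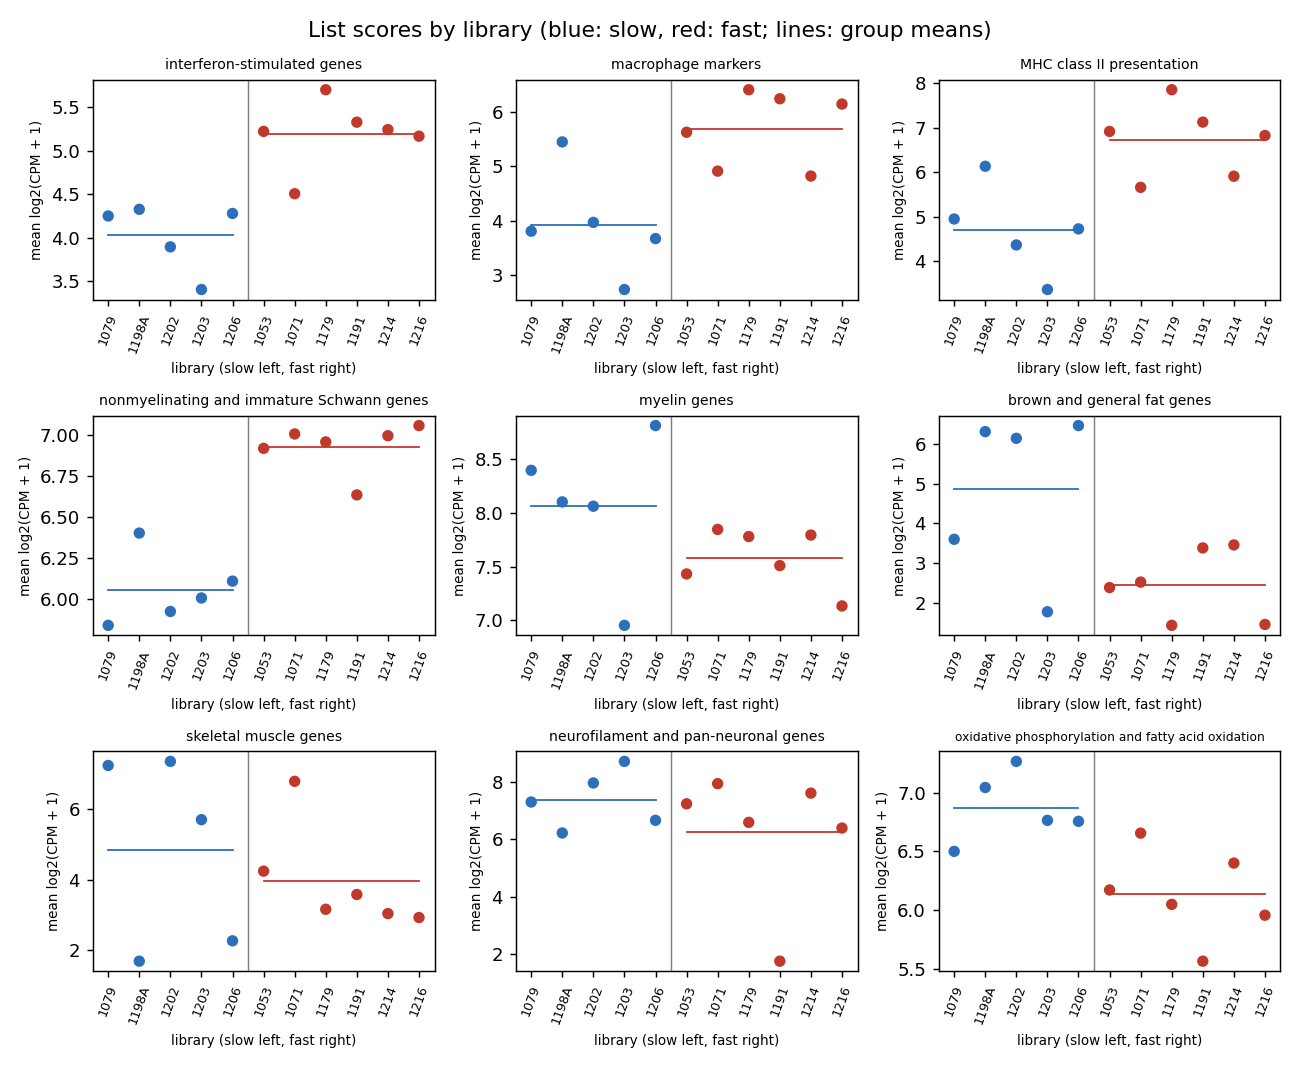
Each point is the score of a gene list in 1 library, the mean of log2(CPM + 1) over its tested genes, with slow libraries in blue, fast libraries in red, and lines at group means. Among the lists shown, interferon and nonmyelinating Schwann scores do not overlap between groups. Slow 1198A lies among the fast libraries for macrophage and MHC class II genes, 3 slow libraries stand high for fat genes, and fast 1191 stands low for neuronal genes.

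A single gene of the fat list and none of the energy metabolism list passed the test. Of 18 brown and general fat genes, 1 was called lower and 0 higher, 17 were lower at an unadjusted p under 0.05, and the median log2 fold change was -3.40. *Pnpla2*, the lipase that opens fat droplets (chr7:141455198-141460743, plus strand), was at 64.7, 253, 217, 24.5, and 277 CPM in slow and 34.2, 30.8, 26.5, 33.0, 41.4, and 28.8 CPM in fast libraries. Slow 1203 lay below every fast library, and the other 4 slow libraries lay above every one of them (log2 fold change -2.38, SE 0.50, adjusted p = 0.0484), and without the 3 slow libraries of high fat score the log2 fold change was -0.46 (unadjusted p = 0.187 in the edgeR fit across all genes). *Adipoq*, the hormone of fat cells, was at 29.1, 148, 196, 0.790, and 309 CPM in slow libraries and 0.0748 to 28.6 CPM in fast ones (log2 fold change -4.10, SE 1.34, adjusted p = 0.115). Without those 3 libraries the list's median was -0.46 and 0 of its genes had an unadjusted p under 0.05. Those 3 were picked by their score on this same list, *Pnpla2* included, so this fit cannot test the fat difference.

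Of 26 genes of oxidative phosphorylation and fatty acid oxidation, 0 were called by edgeR and 23 were lower at an unadjusted p under 0.05, with a median log2 fold change of -0.75. *Acadm*, the first enzyme for medium-chain fatty acids, was at -1.22 (adjusted p = 0.0572). The score was 6.50 to 7.26 in slow and 5.57 to 6.66 in fast libraries, against 8.34 to 8.72 in controls. Controls also scored above every PN for fat and skeletal muscle genes. Mitochondrial genes outside the list were called lower, and these were chosen after their values were seen. *Uqcrc2* and *Cyc1*, subunits of complex III, fell by 0.73 and 0.91 on the log2 scale (adjusted p = 0.0484 and adjusted p = 0.0484), *Ndufb9* of complex I fell by 0.97 (adjusted p = 0.0449), and *Fh1*, the fumarase gene, fell by 0.74 (adjusted p = 0.0458). *Ndufb9* was at 75.00, 111, 146, 96.1, and 111 CPM in slow libraries and 39.6 to 73.6 CPM in fast ones, which did not overlap, and the slow libraries of low fat score, 1079 and 1203, were above all fast libraries too. Without the 3 slow libraries of high fat score the list's median was -0.42, with 2 genes lower at an unadjusted p under 0.05. *Ndufb9* was at -0.62 in that fit and was not called. In that fit the 72 called genes that fell had a median log2 fold change of -1.0 in place of -1.37, and 66 of them had an unadjusted p under 0.05, while the 124 that rose had 1.75 in place of 1.52, and 124 of them did. All these genes were picked as called with the same libraries included, so the counts are no independent check.

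None of the 12 largest falls among called genes without overlap was in a list, and *Smoc1* had the largest of them. *Smoc1*, a secreted matrix protein that modulates BMP signals (chr12:81026808-81186414, plus strand), was at 10.3, 16.7, 11.9, 8.25, and 30.5 CPM in slow and 3.84, 3.15, 1.795, 3.01, 4.13, and 1.37 CPM in fast libraries. The groups were apart, and controls, at 27.2 to 30.7 CPM, lay near or above the highest slow library (log2 fold change -2.44, SE 0.39, adjusted p = 0.0317). *Agpat9*, encoding an enzyme of the first step of triglyceride synthesis, and *Gpx3*, a secreted glutathione peroxidase, fell by 2.39 and 1.86 on the log2 scale (adjusted p = 0.0376 and adjusted p = 0.0449). Both were highest in slow libraries of high fat score, and without those 3 their log2 fold changes were -1.47 and -0.70, while that of *Smoc1* was -1.68. *Chdh*, choline dehydrogenase, was at 49.1, 23.7, 42.7, 13.5, and 58.6 CPM in slow and 4.84, 7.64, 6.21, 10.4, 10.2, and 4.88 CPM in fast libraries (log2 fold change -2.36, SE 0.37, adjusted p = 0.0317). The fast libraries lay below every slow library. *Adcy8*, a calcium-activated adenylyl cyclase, *Sptb*, a spectrin of the membrane skeleton, *Ptprd*, a receptor phosphatase of neurons, *Fgf4*, a fibroblast growth factor, and *Mchr1*, a peptide hormone receptor, fell by 1.86, 1.79, 1.82, 1.83, and 2.04 on the log2 scale, with edgeR adjusted p-values of 0.0376 for *Ptprd* and 0.0449 for the other 4. *Fam13a* and *Glb1l2*, a gene related to beta-galactosidase, fell by 1.84 and 1.81, and they were at -0.71 and -1.08 without the 3 slow libraries of high fat score.

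The remaining lists (skeletal muscle, neuronal, ribosomal, cholesterol, clock, heat shock, and HOX genes) held no called gene. Skeletal muscle genes had a median log2 fold change of -1.50 over 23 genes, of which 1 was lower at an unadjusted p under 0.05. Their score was 1.69 to 7.35 in slow and 2.93 to 6.78 in fast libraries, which overlapped over nearly the whole range. The 16 neuronal and 18 sensory neuron genes had medians of -0.65 and -0.67, with 0 and 1 higher and 0 and 1 lower at an unadjusted p under 0.05; *Nefl*, a neurofilament, was at 1318, 512, 1644, 2862, and 690.1 CPM in slow and 1370.5, 1530.4, 762, 3.08, 1181, and 498 CPM in fast libraries. Of 28 ribosomal protein genes, 14 were higher and 0 lower at an unadjusted p under 0.05, with a median of 0.33. Cholesterol synthesis (22 genes), circadian clock (19), heat shock chaperone (17), and HOX genes (23) had 0, 1, 0, and 0 genes higher and 1, 2, 4, and 3 lower by that count.

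**Figure D5:**
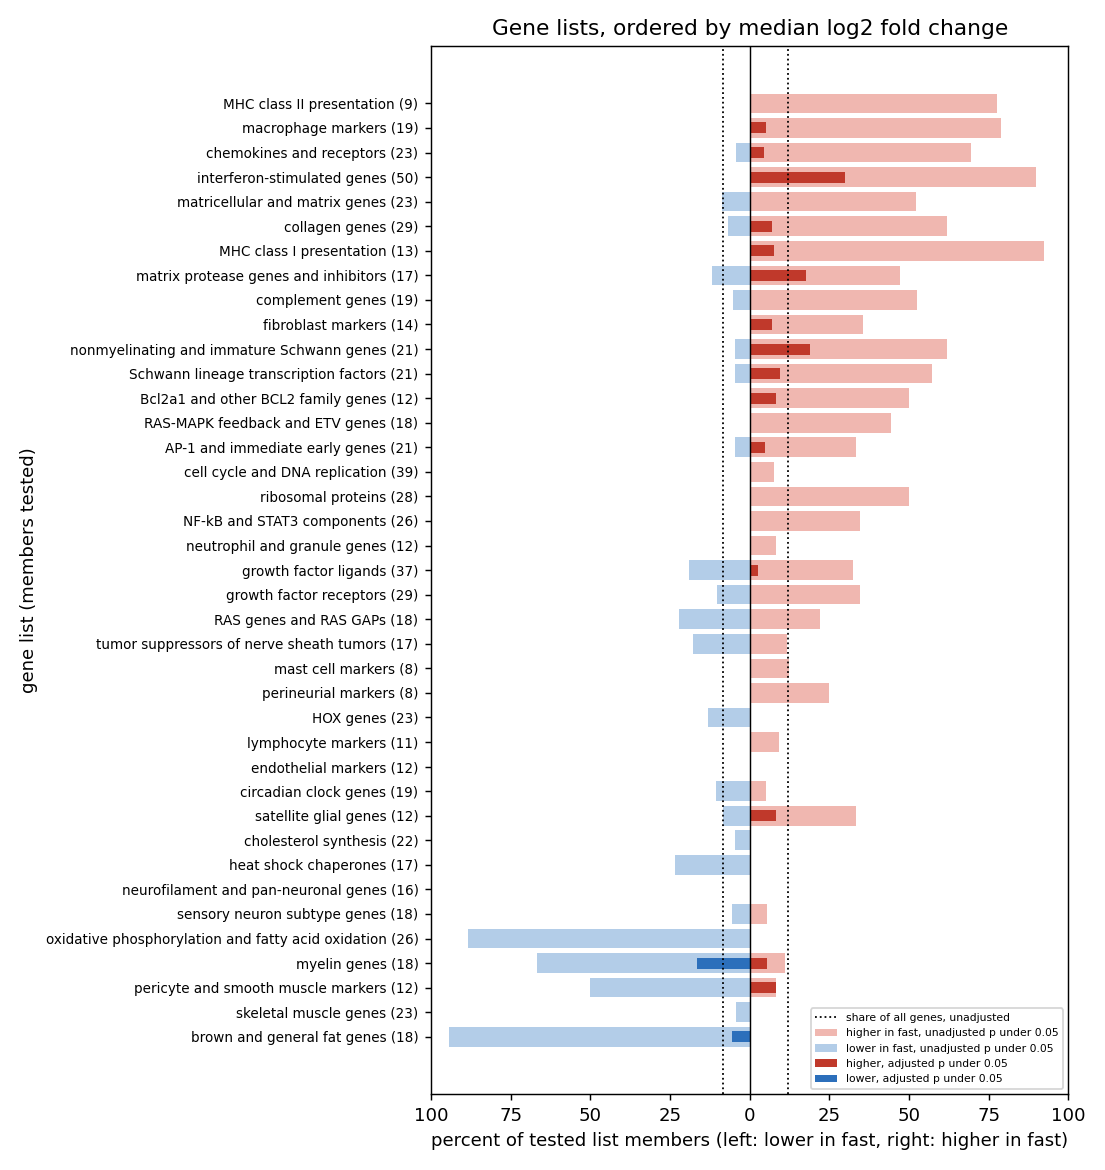
For each list with at least 8 tested genes (number in parentheses), pale bars give the percent of its genes at an unadjusted p under 0.05 and dark bars the percent at an adjusted p under 0.05, to the right for genes higher and to the left for genes lower in fast-growing PNs; dotted lines mark the 11.9% and 8.51% of all genes. Interferon-stimulated genes have the largest called share, and fat and oxidative genes the largest unadjusted shares on the left.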

How the data were processed

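Total RNA of whole frozen tissue was amplified (Ovation RNA-Seq System v2) and sequenced. Per the submitters' processing notes and methods, the authors used CASAVA 1.4, FastQC 0.11.0, TopHat2 2.0.9 on mm10, and featureCounts 1.5.2, and deposited raw counts per gene for 24062 genes. The strand setting and annotation release are not given in the sources used here, so overlapping genes on opposite strands cannot be told apart. Their deposited log2 table (edgeR 3.16.5) was not used. The groups, gene lists, and tests were chosen with earlier results of these data known.

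The counts of the 11 PNs were filtered (filterByExpr), scaled by TMM, and fitted with edgeR 4.0.16 (glmQLFit, glmQLFTest; R 4.3.3) with growth group as the only term, and p-values were adjusted over 15465 genes by Benjamini-Hochberg. The SE of a log2 fold change was derived from the fold change and its test statistic. CPM used TMM library sizes of all 14 libraries, and list scores are means of log2(CPM + 1). Genes named are the 3 of lowest p, the 12 largest rises and falls among called genes whose groups did not overlap and whose mean log2 CPM was at least 1, called members of the lists, and defining members of lists without one; further genes of the lists are given to show genes that were not called, and genes said to be picked after their values were seen lie outside the rule. Some genes that the rule takes are not reported here. Alternatives were RLE and upper quartile scaling, no filter, at least 10 counts in every library of 1 group, DESeq2 1.42.0, limma 3.58.1 voom, all 14 libraries, score covariates, and leaving out libraries. The fit was tested on simulated data. No 2 libraries of a group were duplicates (lowest chi-square per degree of freedom 23.9 over 25 pairs). Positions are mm10 (GENCODE M21), matched by symbol for 908 genes and by another symbol for 4, with 0 unmatched. Totals were 9900759 to 17594164 counts per PN library. Sequences are from RefSeq. Figures were drawn with Python 3.11.15 and matplotlib 3.10.9.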

Additional observations from a re-analysis of the deposited data

Results flagged for a closer look

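In 250 groups of library values (84 named genes and 41 list scores, each in the slow and the fast group), 26 had a library whose gap to its nearest neighbor was large for the range of its group by Dixon's criterion, where chance gives about 1 in 20. Slow 1198A stood above the other 4 slow libraries for *Klk9* (6.19 CPM, next 1.25), *Gdnf* (1.11 CPM, next 0.605), *Col28a1* (135 CPM, next 50.1), *Timp1* (18.4 CPM, next 4.04), *H2-Aa* (434 CPM, next 133), *Postn* (456 CPM, next 136), and *C1qa* (24.99 CPM, next 5.64). Slow 1079 was low for *Lgals3bp* (47.2 CPM, next 64.1) and high for *Cd3e*, a T cell receptor chain (47.6 CPM, next 4.23). Slow 1206 was high for *Pecam1*, an endothelial adhesion molecule (128 CPM, next 35.4). Slow 1203 was high for *Hmgcs1*, an enzyme of cholesterol synthesis (605 CPM, next 284), and low for the mast cell score (1.48, next 2.56).

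Fast 1191 stood high for *Mcam* (322 CPM, next 212), *Cd3e* (22.02 CPM, next 7.03), *Mki67* (174 CPM, next 69.3), and *Postn* (2142 CPM, next 1073). It stood low for 5 list scores, which were the neuronal (1.77, next 6.39), sensory neuron (1.86, next 5.54), satellite glial (5.79, next 6.39), nonmyelinating and immature SC (6.63, next 6.92), and growth factor receptor (5.43, next 5.81) scores. Fast 1179 was high for *Tap1* (56.8 CPM, next 28.4) and for *S100a8*, a neutrophil protein (36.9 CPM, next 15.3). Fast 1071 was high for *Acta1*, skeletal muscle actin (316 CPM, next 46.3), and for the skeletal muscle score (6.78, next 4.24). Fast 1216 alone of the fast libraries held *Xist* at a high level (3372 CPM, next 4.70). With fast 1191 and slow 1203, the ends of the first principal component, left out, 509 genes were called, 126 higher and 383 lower.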

How the results depend on the processing

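The direction of each of the 196 called genes was kept under every alternative that tested it, but the counts moved with most of them. The alternatives reuse the libraries on which the genes were called, so a kept direction is no independent check. In place of 196 called genes (124 higher, 72 lower), there were 130 (70 higher, 60 lower) with RLE size factors, 72 (43 and 29) with upper quartile scaling, 137 (87 and 50) with no filter on low counts, 313 (206 and 107) with a stricter count filter, 1592 (866 and 726) with DESeq2, 34 (27 and 7) with limma voom, 423 (220 and 203) with all 14 libraries fitted, 335 (260 and 75) with the ratio of Y-linked to *Xist* counts as covariate, and 0 (0 and 0) with muscle and fat scores as covariates. Among alternatives chosen after seeing the data, there were 1 (1 and 0) with the fat score, 378 (205 and 173) with the neuronal score, and 0 (0 and 0) with the macrophage score as covariate, 42 (38 and 4) without the 3 slow libraries of high fat score, 509 (126 and 383) without slow 1203 and fast 1191, and 118 (58 and 60) without *Rn45s*. Leaving out 1 library gave 2 to 1194 called genes, 2 to 889 higher and 0 to 355 lower. The 15 called interferon-stimulated genes became 8 with upper quartile scaling, 38 with DESeq2, 5 with limma voom, 0 with muscle and fat scores, 1 with the fat score, 0 with the macrophage score, 1 without the high-fat libraries, and 1 to 30 when 1 library was left out. The 4 nonmyelinating and immature SC genes became 11 with DESeq2, 0 with muscle and fat scores, 0 with the fat score, 0 with the macrophage score, 1 without the high-fat libraries, and 1 to 11 when 1 library was left out. The 3 myelin genes called lower became 0 with upper quartile scaling, 11 with DESeq2, 0 with limma voom, 0 under each set of covariates from muscle, fat, or macrophage scores, 0 without the high-fat libraries, 7 without slow 1203 and fast 1191, and 0 to 10 when 1 library was left out. The muscle and fat score differences kept their sign when 1 library was left out. Fewer libraries or more covariates leave fewer residual degrees of freedom, and the cause of these moves was otherwise not tested. No paired analysis was possible because no mouse number is shared between the groups. Genes at a few counts per library, such as *Fcgr4*, *Oas1g*, and *Bcl2a1b*, limit the precision of their folds.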

Other observations

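The clustered protocadherins lie outside the lists and were picked after their values were seen. The beta protocadherins, adhesion molecules that give nerve cells their surface identity, had 21 tested genes, of which 5 were called higher (*Pcdhb11*, *Pcdhb12*, *Pcdhb13*, *Pcdhb16*, and *Pcdhb17*) and 18 were higher at an unadjusted p under 0.05. All 21 had a log2 fold change above 0, with a median of 0.71. The neighboring gamma cluster had 22 tested genes, 0 called by edgeR and 8 higher at an unadjusted p under 0.05, with a median of 0.34, and the alpha cluster had 9 tested genes, 0 called, 0 above 0, and a median of -0.61. Members of a cluster share sequence, and reads can be split between them. *Pcdhb16* was at 22.6, 23.8, 22.2, 23.4, and 15.98 CPM in slow and 38.3, 29.3, 49.6, 48.1, 35.5, and 54.3 CPM in fast libraries (log2 fold change 0.95, SE 0.18, adjusted p = 0.0449).

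Further called genes outside the naming rule and picked after their values were seen were *Megf10*, a receptor for engulfing dying cells (log2 fold change 1.25, SE 0.26, adjusted p = 0.0484), *Plat*, tissue plasminogen activator (log2 fold change 1.39, SE 0.27, adjusted p = 0.0449), *Mfap2*, a microfibril protein (log2 fold change 2.62, SE 0.53, adjusted p = 0.0449), and *Pik3ap1*, an adaptor for PI3 kinase in B and myeloid cells (log2 fold change 2.69, SE 0.44, adjusted p = 0.0317). Their log2 fold changes were 0.63, 0.66, 1.47, and 1.30 in this order with the macrophage score as covariate, where none was called. Among genes that fell were *Pllp*, plasmolipin of myelin (log2 fold change -1.27, SE 0.27, adjusted p = 0.0484), *Rbp4*, the retinol carrier that fat and liver secrete (log2 fold change -4.30, SE 0.84, adjusted p = 0.0449), and *Acsl1*, which activates long-chain fatty acids (log2 fold change -2.50, SE 0.53, adjusted p = 0.0484). The groups overlapped for *Rbp4* and *Acsl1*. Without the 3 slow libraries of high fat score, the log2 fold changes of *Rbp4* and *Acsl1* were -1.77 and -0.55, and neither was called.

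Sex is not labelled, and sex-linked genes were read as values only. The Y-linked genes *Ddx3y*, *Eif2s3y*, *Uty*, and *Kdm5d* each had 357 counts or more in slow 1079, 1202, and 1203 and in fast 1053, 1071, 1179, and 1191. Slow 1198A held 4, 6, 4, and 2 counts of them, and slow 1206 and fast 1216 at most 2 of each. *Xist*, the RNA of the inactive X chromosome, was at 3426 and 2753 CPM in slow 1198A and 1206 and 3372 CPM in fast 1216. Fast 1214 had almost neither, with 2.58 CPM of *Xist* and, of the 4 Y-linked genes, 1 count of *Eif2s3y* alone. With the ratio of Y-linked to *Xist* counts as covariate, 335 genes were called, of which 171 were among the 196.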
